A study of Mus musculus with 2 samples.

Results

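The 7 genes described here are Fos, Fosb, Fosl1, Fosl2, Jun, Junb and Egr1, immediate-early genes of the AP-1 family and an early growth response gene. Each was given as an interval of the mouse genome build mm9 and was widened by 20 kb on both sides. The intervals were set by position, although earlier results of these data were known when the members were chosen. The place used below for Fos was instead found from the ChIP tags at surrounding genes. The 7 widened intervals span 337 of 2641884 windows of 1 kb and held 4955 of 13581267 ChIP tags and 1147 of 5778620 input tags. The study profiled Brg1, the ATPase of the Swi/Snf chromatin remodelling complex, in primary mouse embryonic fibroblasts, connective-tissue cells grown out of whole embryos. Both libraries came from wild-type embryos at E13.5 on a mixed background of C57BL/6 and 129. One library was precipitated with a rabbit polyclonal antibody against Brg1 and the other, the input, was made without an antibody. Chromatin for both had been digested by micrococcal nuclease, an enzyme that prefers the linker DNA between nucleosomes, followed by a short sonication. The number of embryos behind the cells, and whether the cultures were serum-fed or starved at harvest, are not given in the sources used here. No RNA was measured, so neither the expression of these genes nor the identity of the cells could be checked.

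AP-1 is a dimer of basic leucine zipper proteins. Fos proteins bind DNA only with a partner, usually a Jun protein, whereas Jun proteins can also pair with each other. Egr1 is a zinc finger factor. In fibroblasts Fos, Fosb, Jun, Junb and Egr1 are transcribed within minutes of serum or growth factor treatment, without new protein synthesis, which made them the classical model of immediate-early induction.

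Each group is 1 library, so no difference has a replicate check. All tests compare the tags of these libraries, not conditions, and all intervals are exact 95% intervals that cover counting error only. The scaled ratio divides ChIP by input tags and by the quotient of both autosomal totals, 2.36, so that 1 is the autosomal mean. An autosomal 1 kb window held on average 5.47 ChIP tags and 2.32 input tags.

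The position of each listed interval was checked first, because no annotation on mm9 coordinates was used here. The check was devised after the profiles were seen, and its span after several were tried. The starts of the genes surrounding each member, in the order and spacing of a RefSeq table of the build GRCm38, were slid along the ChIP tags as a rigid block, and the tags within 500 bp of the starts were counted at each step. The member's own starts were left out. With starts from 600 kb on either side, the block held most ChIP tags within 1.1 kb of the listed place for Fosb, Fosl1, Fosl2, Jun and Junb. For Junb, 46 starts held 973 tags there, against at most 800 elsewhere within 4 Mb and a median of 291. For Fos the maximum lay elsewhere. Its 32 surrounding starts held 709 tags at a displacement of 1001 kb, against at most 484 at any place more than 5 kb away and at most 391 near the listed interval. With starts from 1000 kb on either side the places found for these 6 genes moved by less than 1 kb. With 400 kb, Fosl2 and Jun were not placed at their intervals, from 10 and 14 starts. The interval of Egr1 was not checked, as no starts around it were used.

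**Figure D1:**
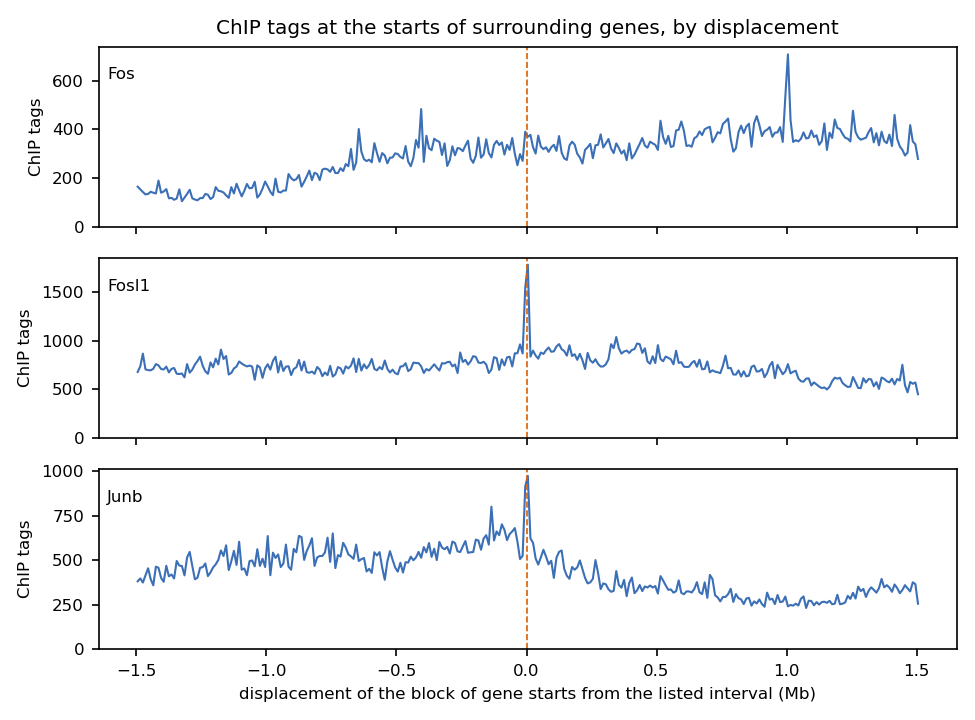
ChIP tags within 500 bp of the starts of surrounding genes (y axis, highest value per 10 kb) against the displacement of the block of starts from the listed interval (x axis, Mb; dashed line, no displacement). Fosl1 and Junb peak at the dashed line, whereas Fos peaks at 1001 kb, with 709 tags.

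The interval listed for Fos, on chromosome 12 at 85814000 to 85818000, is therefore given under that name only. Values for Fos are those of the interval of the same length 1 Mb further up, at 86814000 to 86818000, and sums are given both ways. Coordinates of other builds were not converted. The start edge is the end of an interval where transcription begins, on the plus strand for Fos, Fosl1, Fosl2 and Egr1 and on the minus strand for Fosb, Jun and Junb. The start region runs from 1 kb outside that edge to 2 kb inside it.

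With Fos at the upper place, Brg1 ChIP tags exceeded the scaled input over 6 of the 7 genes, with intervals above 1. Over Fosb the interval of the ratio included 1. That place for Fos was found from ChIP tags of these same data, and at the interval listed for Fos the ratio was 1.13 (0.567 to 2.41). Summed over the 7 gene intervals with Fos at the upper place, 1428 ChIP tags stood against 232 input tags, a ratio of 2.61 (2.27 to 3.01). The sum over the intervals as listed was 1330 against 228, a ratio of 2.48 (2.15 to 2.86). Over the start regions with Fos at the upper place the ratio was 3.48 (2.80 to 4.35). It was lower in the 20 kb upstream of the intervals, at 1.86 (1.68 to 2.05), and in the 20 kb downstream, at 1.65 (1.49 to 1.83). As listed, these ratios were 3.19 (2.54 to 4.03), 1.79 (1.62 to 1.98) and 1.54 (1.39 to 1.72). The input was itself above its mean. With Fos at the upper place it stood at 1.75 times the autosomal mean over the gene intervals, where the ChIP stood at 4.58 times. As listed, the input was at 1.72 times and the ChIP at 4.26 times. By distance, with Fos at the upper place, the ratio was 1.54 (1.34 to 1.78) from 20 to 10 kb upstream of the start edge. It was 3.06 (2.30 to 4.13) in the last 2 kb before the edge and 3.67 (2.83 to 4.83) in the first 2 kb after it. From 5 to 10 kb downstream it was 1.46 (1.21 to 1.78), and from 10 to 20 kb downstream it was higher again, at 2.11 (1.81 to 2.47). ChIP density did not rise between these spans, at 2.60 and 2.61 times its autosomal mean. The input fell from 1.77 to 1.24 times its mean. As listed, the first 3 ratios by distance were 1.48, 3.09 and 3.24. The rise of the ratio further downstream was not distinct as listed, with 1.63 (1.33 to 2.00) from 5 to 10 kb and 1.73 (1.49 to 2.03) from 10 to 20 kb.

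**Figure D2:**
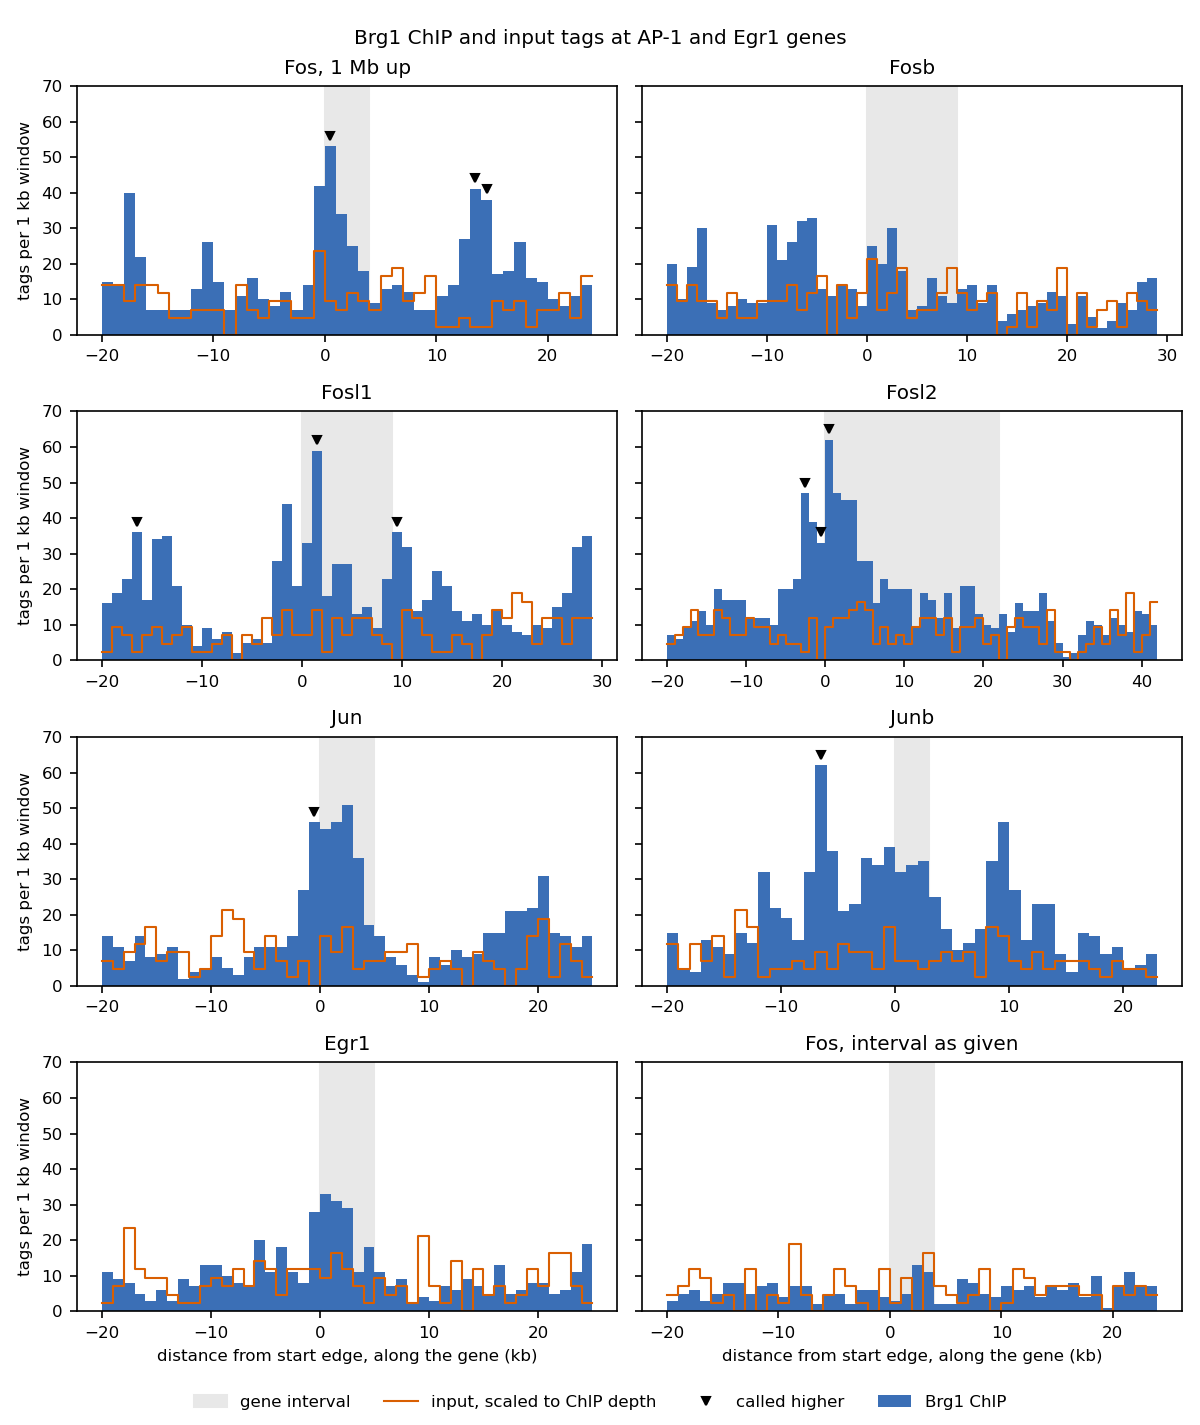
Tags per 1 kb window (y axis) against the distance from the start edge along each gene (x axis, kb), for the Brg1 ChIP (bars) and the input multiplied by the ratio of library totals (line). Grey marks the gene interval and triangles the windows called higher. The ChIP rises above the line near the start of each gene and stays near it at the interval listed for Fos. At Fosb both rise in the first window inside the start edge, with 25 ChIP tags against 9 input tags. The ChIP is above the line in the windows starting 1 and 2 kb inside, with 20 against 3 and 30 against 5.

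Over the gene intervals, ChIP density in tags per kb was highest at Jun (38.8), followed by Junb (33.7), Fos (32.5), Fosl1 (24.9), Egr1 (24.4), Fosl2 (23.3) and Fosb (16). The interval listed for Fos had 8. Ordered by the ratio to the input, Junb came first at 5.36 and Fosb last at 1.33. From Junb to Fosl2, the intervals of neighbours in that order overlapped. That of Fosb, 0.947 to 1.89, lay below the intervals of Fos, Fosl1, Fosl2, Jun and Junb and overlapped that of Egr1.

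**Figure D3:**
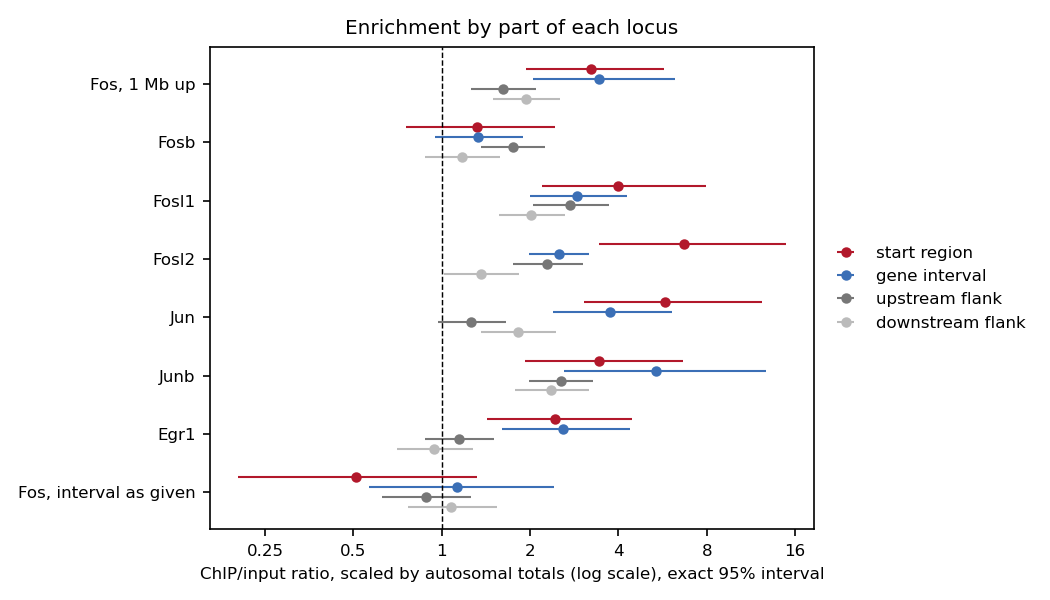
Scaled ChIP/input ratio (x axis, log scale) with its exact 95% interval for the start region, the gene interval and both 20 kb flanks of each locus. At Fosl2 and Jun the start region lies furthest right, at 6.70 and 5.77, and at Fosb all 4 parts lie between 1.17 and 1.74.

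A two-sided exact binomial test with Benjamini-Hochberg adjustment was run over 1 kb and 10 kb windows of the whole genome. A window is called higher or lower where the adjusted p is below 0.05 and the ratio passes 1.5 or its inverse. Of the 268 windows of 1 kb tested in the loci as listed, 8 were higher (2.99%), against a background of 0.380% of 706215 tested windows. With Fos at the upper place 11 of 289 were higher (3.81%). None was lower, where the background was 0.00666%. At an unadjusted p under 0.05 and the same ratios, 62 of the 268 were higher and 4 lower, where the shares over the genome were 5.98% and 1.70%, so the lower windows were near the background. The median ratio of the tested windows was 1.84 in the loci as listed and 1.13 over the genome. Only windows with at least 10 tags over both libraries were tested, 706215 of 2641884 at 1 kb. That choice rests partly on the ChIP tags, so both medians can be raised by it. In 10 kb windows, 16 of 39 were higher in the loci as listed (41.0%), against a background of 3.98% of 249877. With Fos at the upper place 19 of 39 were higher. None was lower, where the background was 1.11%. At an unadjusted p under 0.05, 22 of the 39 were higher and 1 lower, against 8.06% and 8.60% over the genome. The median ratio of the 39 was 1.57 as listed and 1.81 with Fos at the upper place, against 0.898 over all tested 10 kb windows. The background was all tested windows of the genome, not windows at gene starts. In the position check, starts of surrounding genes were dense in ChIP tags too. At the place found for Junb, 46 of them held 973 tags, against a median of 291 over the places tried. For Fosl1, 67 held 1784, against a median of 455. Whether the loci exceed other genes was not tested.

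**Figure D4:**
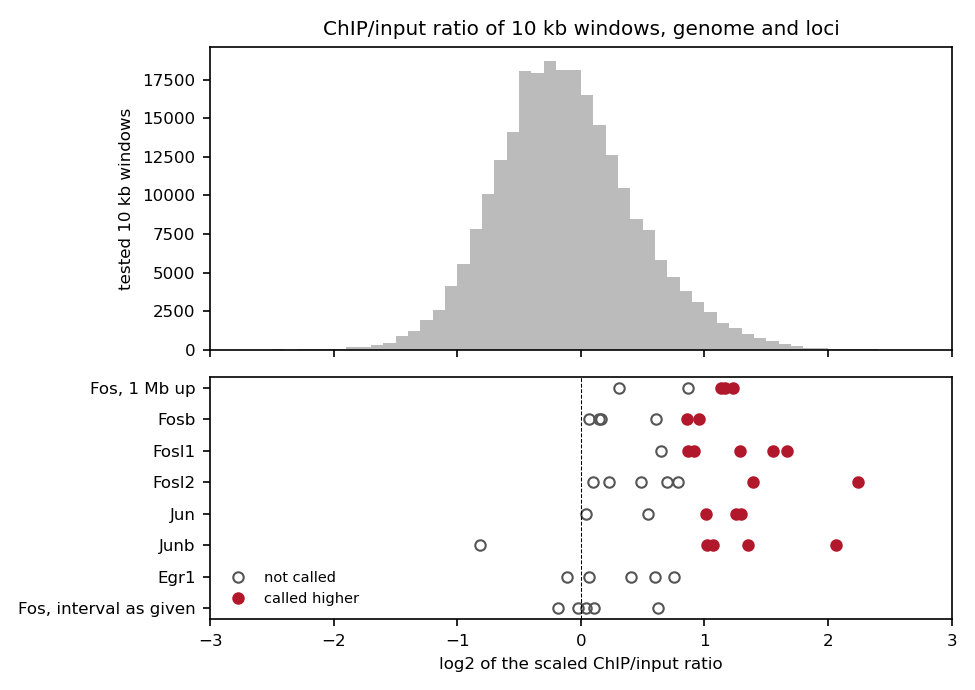
Upper panel, number of tested 10 kb windows of the genome by log2 of the scaled ChIP/input ratio. Lower panel, the 10 kb windows of each locus on the same axis, filled where called higher; 19 of the 44 shown are filled, and none at Egr1 or at the interval listed for Fos.

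Jun and Junb encode the Jun partners of AP-1. Jun is the stronger activator of the pair, and Junb often acts as its antagonist. Over the Jun interval, chromosome 4 from 94715000 to 94720000, 194 ChIP tags stood against 22 input tags, a ratio of 3.74 (2.40 to 6.11). Brg1 tags formed a compact block there. From 2 kb upstream of the start edge to 5 kb inside it, 7 consecutive windows each held at least 17 ChIP tags, over 3 times the autosomal mean. The windows on either side of the start edge held 46 and 44 tags, and the fullest window, between 2 and 3 kb inside, held 51 against 7 input tags. The window just upstream of the edge, at 94720000 to 94720999, held 46 ChIP tags and no input tag. Set against a floor of 3 input tags the ratio was 6.51, and the 95% interval, without the floor, began at 5.08. The window was higher in the test, which used 0 input tags (exact adjusted p = 0.00167). Relative to both flanks together, the ratio over the interval was 2.49 times as high (1.52 to 4.23). A second dense block of 4 kb lay 17 to 21 kb downstream, with 95 ChIP tags against 16. The 10 kb window over the gene, with 226 tags against 39, was higher (ratio 2.46, exact adjusted p = 3.36e-06), and so were both windows downstream of it. The upstream flank had a ratio of 1.26 (0.971 to 1.66).

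Around Junb, on chromosome 8 at 87500000 to 87503000, dense Brg1 tags reached well past the gene. The interval held 101 ChIP tags and 8 input tags, a ratio of 5.36 (2.62 to 12.7). Its start region held 105 against 13, a ratio of 3.43 (1.92 to 6.65), and the interval widened by 5 kb had a ratio of 3.14. The dense block around it was 12 kb long, from 4 kb inside the start edge to 8 kb upstream, and held 411 tags against 41. Its fullest window did not lie at the gene. That window, at 87509000 to 87509999 and between 6 and 7 kb upstream of the start edge, held 62 ChIP tags against 4, for a ratio of 6.58 (95% interval from 2.44 to 24.9, exact adjusted p = 0.00759). As many ChIP tags were held by 132 of 2415308 autosomal windows, counting this one and the fullest of Fosl2. Further blocks of dense windows lay 9 to 12 kb upstream, with 73 tags against 5, and 8 to 11 kb downstream, with 108 against 16. The 10 kb window from 87500000, with 354 tags against 36 (ratio 4.17, 95% interval from 2.96 to 6.06, exact adjusted p = 7.66e-18), had the fourth lowest p among all higher 10 kb windows of the genome. In the RefSeq table Hook2, which encodes an adaptor of microtubule motors, is the neighbour on the upstream side, and Prdx2, a peroxiredoxin, and Rnaseh2a, a subunit of ribonuclease H2, lie downstream. Tags in the flanks of Junb could not be assigned to one of these genes.

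Among the Fos genes, Fos is the most rapidly induced and its product carries a strong activation domain. At the upper place its interval held 130 ChIP tags and 16 input tags, a ratio of 3.45 (2.04 to 6.21). The windows from 1 kb upstream to 4 kb downstream of the start edge held 42, 53, 34, 25 and 18 ChIP tags, so that density was highest in the first kb after the edge and fell along the gene. That window, at 86814000 to 86814999, had 53 tags against 4 (ratio 5.62, 95% interval from 2.07 to 21.4, exact adjusted p = 0.0260). A separate block of 6 dense windows lay 12 to 18 kb downstream of the edge, with 167 ChIP tags against 15. Of it the windows at 86827000 and 86828000 were higher, with 41 tags against 1 (ratio 17.4, 95% interval from 2.95 to 704, exact adjusted p = 0.0134) and 38 against 1 (ratio 16.1, 95% interval from 2.72 to 653, exact adjusted p = 0.0212). Upstream, dense windows lay 16 to 18 kb away, with 62 tags against 10, and 10 to 11 kb away, with 26 against 3. The gene ratio was 1.95 times that of the flanks (1.12 to 3.62). At the interval listed for Fos nothing of this kind was found. It held 32 ChIP tags against 12, a ratio of 1.13 (0.567 to 2.41), no window there reached 17 ChIP tags, and 0 of 19 tested 1 kb windows and 0 of 5 tested 10 kb windows were higher. At an unadjusted p under 0.05, 1 of the 19 and 0 of the 5 were, which for the 1 kb windows is near the 5.98% over the genome.

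Fosl2 and Fosl1 encode the Fos-related antigens, which lack the strong activation domain of Fos and are induced later. Fosl2, on chromosome 5 at 32438000 to 32460000, had the widest block of dense windows together with Junb, 12 kb, reaching 6 kb to either side of the start edge, with 437 ChIP tags against 46. Its start region held 142 against 9, a ratio of 6.70 (3.43 to 14.9), which was 3.52 times that of the rest of the widened interval (1.76 to 7.99). The input density there was 0.851 times that of the rest of the locus, while the ChIP was at 8.65 times its autosomal mean. The window at 32438000 to 32438999, the first inside the start edge, held 62 tags against 4 (ratio 6.58, 95% interval from 2.44 to 24.9, exact adjusted p = 0.00759). Upstream of the edge, the window at 32437000 held 33 tags and no input tag and was higher (exact adjusted p = 0.0155). Its ratio against the floor was 4.67, with the 95% interval beginning at 3.59. The window at 32435000 held 47 against 1 (ratio 19.9, 95% interval from 3.41 to 804, exact adjusted p = 0.00513). Fosl2 is the longest of the 7 intervals. The 10 kb window from 32430000, which lies mostly upstream of the gene interval, had a ratio of 4.74. The windows from 32440000 and 32450000, inside the gene interval, had lower ratios of 2.63 (1.88 to 3.75) and 1.72 (1.19 to 2.54). The window from 32450000 was not called (exact adjusted p = 0.0506). With the p summed over all outcomes no more likely than the observed one it was (exact adjusted p = 0.0439). The window from 32430000 had the sixth lowest p among all higher 10 kb windows (exact adjusted p = 1.42e-17).

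At Fosl1, on chromosome 19 at 5447000 to 5456000, Brg1 tags were dense both over the gene and around it. The interval held 224 ChIP tags against 33, a ratio of 2.88 (1.99 to 4.29), and the upstream flank had a ratio of 2.74 (2.05 to 3.72). The gene ratio was 1.24 times that of the flanks (0.812 to 1.93), so no difference between gene and flanks was detectable at this depth. The window at 5448000 to 5448999, the second inside the start edge, held the most tags, 59 against 6 (ratio 4.17, 95% interval from 1.81 to 11.8, exact adjusted p = 0.0403). The window at 5456000, just past the end of the gene interval, had 36 and no input tag and was higher (exact adjusted p = 0.00913). Its ratio against the floor of 3 input tags was 5.09, with the 95% interval beginning at 3.93. At 5430000, between 16 and 17 kb upstream, it was 36 against 1 (ratio 15.3, 95% interval from 2.57 to 620, exact adjusted p = 0.0295). In 10 kb windows 5 of 6 were higher, the largest share among the loci. The table places Ccdc85b, Fibp, Ctsw and Efemp2 within 20 kb on the downstream side and only pseudogenes upstream. Ccdc85b encodes a coiled-coil protein and Efemp2 an extracellular matrix protein of elastic fibres.

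Fosb, on chromosome 7 at 19887000 to 19896000, encodes a protein close to Fos in structure and had the lowest ratio. Its interval held 144 ChIP tags against 46, a ratio of 1.33 (0.947 to 1.89), and its start region 53 against 17, a ratio of 1.32 (0.754 to 2.44). ChIP density over the gene was 2.92 times the autosomal mean, but the input was at 2.20 times, the highest input level of the gene intervals. A dense block of 4 kb inside the start edge had 93 ChIP tags against 25 input tags. From 5 to 10 kb upstream of the start edge, 5 dense windows held 31, 21, 26, 32 and 33 ChIP tags in order toward the gene, 143 in all against 22. The 10 kb windows from 19900000 and 19910000, upstream of the gene, were higher (ratios 1.94 and 1.81, exact adjusted p = 0.00250 and 0.00885), whereas those over the gene were not (ratios 1.12 and 1.52, exact adjusted p = 0.915 and 0.155). None of its 40 tested 1 kb windows was called, and 5 were higher at an unadjusted p under 0.05, against 5.98% over the genome.

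Egr1, on chromosome 18 at 35020000 to 35025000, had a narrow and moderate block. The 4 windows from 1 kb upstream to 3 kb downstream of the start edge held 28, 33, 31 and 29 ChIP tags, against 5, 4, 7 and 5 input tags. All other windows of the locus held 20 ChIP tags or fewer, and the median was 8. Over the interval 122 ChIP tags stood against 20, a ratio of 2.59 (1.61 to 4.39), which was 2.46 times that of the flanks (1.46 to 4.33). The intervals of both flanks included 1, with ratios of 1.15 (0.879 to 1.51) upstream and 0.942 (0.703 to 1.27) downstream. No 1 kb window of the locus passed the adjusted test. At an unadjusted p under 0.05, 3 of 34 were higher and 2 lower, against 5.98% and 1.70% over the genome. The higher count over the whole locus is near the background, and the lower share, from 2 windows, is above it. Of the 5 windows touching the gene interval, 2 were higher and 0 lower at this p. The 10 kb window over the gene, 155 tags against 39, had a ratio of 1.69 (1.18 to 2.46) and was not called (exact adjusted p = 0.0556). With the p summed over all outcomes no more likely than the observed one it passed (exact adjusted p = 0.0494), so this call rests on how both tails are joined.

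The genes are set side by side for how focal the tags were. Relative to both flanks, the ratio over the gene was higher at Jun, Egr1, Junb, Fos and Fosl2, where the interval of this measure excluded 1, from 2.49 times at Jun to 1.37 times at Fosl2 (1.01 to 1.86). At Fosl1 and Fosb, with 0.893 times (0.603 to 1.34) at Fosb, it did not. For Junb this depended on the interval taken. The ratio of its start region was 1.35 times that of the rest of its locus (0.727 to 2.69), an interval that included 1. At Jun, Egr1, Fos and Fosl2 the same measure excluded 1. Dense windows, those with at least 17 ChIP tags, made up 3.02% of autosomal windows. They made up 49.0% of the locus of Fosl1, 46.5% at Junb, 41.9% at Fosl2, 31.8% at Fos, 24.5% at Fosb, 24.4% at Jun and 17.8% at Egr1, and 0% at the interval listed for Fos. This threshold was chosen after the profiles were seen, and blocks picked by their ChIP tags have ratios raised by that choice.

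Tags summed over the genes were densest at the start edges, so promoter sequences are shown for the genes with the highest start ratios, Fosl2 and Jun, for Fos, and for Fosb, which had the lowest. Each is the 250 bases before the start, 5′ to 3′ on the strand of the gene, from RefSeq on the build GRCm38.p6. The table had an entry for 5 of the 7 genes and none for Fosl1 and Egr1. Capitals mark matches, on either strand, to the motifs searched, which were the AP-1 site TGACTCA, the cyclic AMP response element TGACGTCA, the GC box GGGCGG bound by Sp1, the CCAAT box, the TATA box in its form TATAAA and the CArG box of serum response factor. These motifs do not overlap each other in the sequences shown, other than a pair of GC boxes in Fosb that share a base.
Fosl2: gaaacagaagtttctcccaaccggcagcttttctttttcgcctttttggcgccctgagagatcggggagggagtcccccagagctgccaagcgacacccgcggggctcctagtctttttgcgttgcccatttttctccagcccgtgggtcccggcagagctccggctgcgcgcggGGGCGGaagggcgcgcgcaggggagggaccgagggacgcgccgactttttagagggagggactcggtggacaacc
Jun: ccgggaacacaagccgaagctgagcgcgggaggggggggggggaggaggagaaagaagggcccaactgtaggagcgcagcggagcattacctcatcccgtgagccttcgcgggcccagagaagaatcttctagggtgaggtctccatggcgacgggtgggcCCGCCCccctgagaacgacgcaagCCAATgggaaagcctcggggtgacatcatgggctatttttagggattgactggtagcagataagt
Fos: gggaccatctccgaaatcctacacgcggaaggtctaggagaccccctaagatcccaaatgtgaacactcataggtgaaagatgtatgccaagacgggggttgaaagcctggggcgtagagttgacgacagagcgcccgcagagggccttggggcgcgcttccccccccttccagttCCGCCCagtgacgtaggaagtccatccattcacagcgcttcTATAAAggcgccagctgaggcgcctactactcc
Fosb: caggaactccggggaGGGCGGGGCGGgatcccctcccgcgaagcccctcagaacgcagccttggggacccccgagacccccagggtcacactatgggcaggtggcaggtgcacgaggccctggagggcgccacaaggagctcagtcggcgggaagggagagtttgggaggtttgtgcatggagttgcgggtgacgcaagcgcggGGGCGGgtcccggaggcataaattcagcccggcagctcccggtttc
The GC box was found in Fos, Fosb, Fosl2 and Jun, and in 32.7% of the 32851 promoters in the table. Fosb held 3 copies. CCAAT was found in Jun, 65 to 61 bases before the start, and in Junb, 36 to 32 bases before it, and in 33.8% of all promoters. TATAAA was found in Fos, 33 to 28 bases before the start, and in 12.4% of all promoters. No exact AP-1 site, cyclic AMP response element or CArG box was found within these 250 bases in the 5 genes; 4.46%, 1.55% and 1.47% of all promoters hold one. CpG dinucleotides numbered 15 in Fos and Jun, 19 in Fosb, 20 in Junb and 23 in Fosl2, above the median of 6 over the table. Fosb, with the lowest ratio, was within the range of the other 4 genes in CpG count, and no difference in Brg1 tags was tested against sequence.

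The 1 kb calls changed with the window grid and the input. With windows started 500 bp later, 16 windows were higher in the loci as listed, of which 2 each touched the intervals of Jun, Junb, Fosl1 and Fosl2, and none was at Fosb or Egr1. At Junb, the windows at 87499500 and 87501500 held 43 and 41 ChIP tags against 2 each (exact adjusted p = 0.0244 and 0.0340). With the input of a window held at or above its mean over the surrounding 10 kb, 2 of the 11 higher windows kept the call, at Fosl2 (32438000) and upstream of Junb (87509000). The other 9, at Fos, Fosl1, Fosl2 and Jun, lost it, with ratios between 4.17 and 8.06 under this setting. The largest ratios fell, at 32435000 from 19.9 to 6.65, at 86827000 from 17.4 to 5.80, at 86828000 from 16.1 to 8.06 and at 5430000 from 15.3 to 5.09.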

How the data were processed

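The data are tag counts of 1 ChIP and 1 input library. Each deposited file lists a chromosome, strand, position and count, with no normalization recorded. Bowtie and the build mm9 are named, per the submitters' processing notes, without version or settings. No filter on repeated tags is named there. Window and interval positions follow the deposited coordinates. Whether these count from 0 or 1 is not stated, so a position may be off by 1 base. No position held more than 2 tags. On the chromosomes of the 7 genes 37067 positions of the ChIP and 0 of the input held 2.

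Tags were moved 75 bp along their strand. Windows reaching 10 tags over ChIP and input were tested by a two-sided exact binomial test, the smaller tail doubled (chosen after both this and the other two-sided p had been computed), with Benjamini-Hochberg adjustment over all tested windows. Intervals are exact conditional (Clopper-Pearson) 95% intervals; those for a gene relative to its flanks are exact conditional intervals of the odds ratio. Where the input had 0 tags, a floor of 3 tags per window was used for the printed ratio only. The test, the call and the interval used the 0 tags. Named windows are every called 1 kb window and the fullest window of each locus. The members, lists and tests were chosen with earlier results of these data known. Other immediate-early genes were to be measured only with an annotation on mm9 coordinates and were not analysed here. Gene names and neighbours came from a RefSeq table on GRCm38, in which all 7 symbols matched. The window test, the intervals and the position check were tested on simulated data. The simulated window counts held counting error only, and the simulated position check used an even background of tags. Other sources of error in these libraries were not covered by it. Python 3.11.15 with numpy 2.4.6, scipy 1.17.1, pandas 2.3.3 and matplotlib 3.10.9 was used.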

Additional observations from a re-analysis of the deposited data

How the results depend on the processing

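The summed ratio over the 7 listed gene intervals, 2.48, stayed inside its interval under other scalings, removal of repeated tags, unmoved tags and intervals widened by 5 kb, and was 2.61 with Fos 1 Mb up. It ranged from 2.34 without Jun to 2.77 without Fosb, and moved to 1.83 with intervals widened by 20 kb. Single genes left their interval in 3 of 57 cases: Jun (1.81) and Egr1 (1.24) when widened by 20 kb, and Fos (3.45) when moved. The count of 10 kb windows in the loci kept within 1.5 times of 16, from 12 with a ratio of 2 to 19 with Fos moved, and the genome-wide count of 9952 did too.

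The 1 kb counts, 8 in the loci and 2684 in the genome, moved. They were 14 and 4726 with background scaling, which takes 0.932 times as many ChIP tags per input tag and so raises every ratio alike, 3 and 394 with 1 tag per strand within 5 bp, 33 and 15946 with a minimum of 20 tags, 5 and 715 with no minimum, 0 and 9 with windows of 500 bp, 19 and 7418 with windows of 2 kb, and 2 and 118 with the local input. With windows started 500 bp later they were 16 and 2699. The minimums change how many windows are tested: with 20 tags, 30.6% of 108 windows in the loci were higher against 19.4% of the genome's 82067, a smaller excess than 2.99% against 0.380%. With the local input, 7 of the 9 windows that lost the call had 0 or 1 input tags; those at 86814000 and 5448000 kept ratios of 5.62 and 4.17 and missed the adjusted p. For the others the cause was not tested. No window of the loci was called lower under any of these settings. Of 110 values for the 11 higher 1 kb windows 87 kept the call, and of 171 for the 19 higher 10 kb windows 166 did; 0 changed direction. With the two-sided p summed over outcomes no more likely than the observed one, 10 windows of 1 kb and 18 of 10 kb were higher in the loci; genome-wide, 3339 and 10322 were higher and 177 (in place of 47) and 3691 lower. The 4 windows gained lay at Junb (87508000 and 87514000), Fosl2 and Egr1. This alternative and the shift of Fos in the window counts were added after the data were seen. No paired analysis was possible because neither group has a second library. The input depth, 2.32 tags per kb, limits the 1 kb calls.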
